A study of Homo sapiens with 7 samples.

Results

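CTCF is the zinc finger protein that, with cohesin, anchors chromatin loops and insulates neighbouring genes. Most of its sites lie between genes or in introns, and a minority lies within sequence that also encodes protein. At such a site the same bases serve as codons and as a binding sequence, and CTCF bound within an exon is known from studies of its effect on exon inclusion. The CTCF peaks described here are those whose centre lay in a coding sequence (CDS) of a protein-coding gene and more than 1 kb from the start of every protein-coding gene. They numbered 931 of the 33069 control peaks and 1021 of the 32893 peaks of PDS-treated cells on chromosomes 1 to 22 and X, i.e., 2.82% (95% Wilson interval 2.64 to 2.999%) and 3.10% (2.92 to 3.30%), respectively.

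The peaks came from CTCF ChIP-seq of K562, an established human erythroleukemia cell line. Control cells were not treated, and PDS-treated cells were exposed to 10 μM pyridostatin (PDS), a small molecule that stabilizes G-quadruplexes (G4s, four-stranded structures of guanine-rich DNA), for 24 h. Of the 7 samples, 4 were CTCF precipitations (2 in each condition) and 3 were IgG precipitations (1 of control and 2 of PDS-treated cells). The authors called peaks once per condition on both CTCF samples, so each condition is represented by a single peak list with a fold enrichment over IgG and a p-value for each peak. Whether the control folds rest on this 1 IgG sample alone is not given in the sources used here. Values of single samples and sequencing depths are not analysed here, and the intervals given below cover counting error only. Peaks are not replicates of a condition. Folds were higher in the control list (median over all peaks 26.5) than in the PDS list (median 16.7), and they were therefore compared between lists only as ranks or percentiles within a list.

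The strongest coding-exon peaks that hold the 15-base CTCF consensus are shown first, since they let a reader see CTCF sites that are also codons. These 8 sites had the consensus inside CDS within 100 bp of the centre of both a control peak and the overlapping PDS peak, and they are ordered by mean percentile by fold. Sequences are read 5′ to 3′ from GRCh37 (hg19) on the strand of the match, capitals mark the consensus match, and 15 bases are given on each side.
UNC13A (chr19:17717004-17717048, plus strand): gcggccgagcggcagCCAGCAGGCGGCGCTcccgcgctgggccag
SPI1 (chr11:47376950-47376994, minus strand): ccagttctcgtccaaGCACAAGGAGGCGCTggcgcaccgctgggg
CLCN6 (chr1:11898883-11898927, plus strand): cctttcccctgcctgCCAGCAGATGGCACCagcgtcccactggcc
CDC20B (chr5:54442561-54442605, minus strand): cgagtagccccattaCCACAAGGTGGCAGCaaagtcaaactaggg
BICDL2 (chr16:3078359-3078403, minus strand): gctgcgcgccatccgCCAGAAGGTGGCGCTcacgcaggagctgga
GAREM2 (chr2:26407732-26407776, minus strand): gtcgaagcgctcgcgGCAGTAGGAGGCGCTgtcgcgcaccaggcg
AMBN (chr4:71467317-71467361, plus strand): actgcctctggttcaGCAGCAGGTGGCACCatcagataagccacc
YIPF7 (chr4:44631474-44631518, minus strand): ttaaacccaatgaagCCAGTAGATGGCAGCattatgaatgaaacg
The match ran along the coding strand in SPI1, CLCN6, CDC20B, BICDL2, AMBN and YIPF7 and against it in UNC13A and GAREM2. SPI1 encodes the myeloid transcription factor PU.1, UNC13A a protein that primes synaptic vesicles, AMBN the enamel protein ameloblastin, and CLCN6 an endosomal chloride/proton exchanger. In UNC13A the site lay in the last of 45 coding exons (chr19:17716866-17717163), where the control peak had a fold of 112 (rank 148) and the PDS peak a fold of 36.5 (rank 1340). In SPI1 the site lay in the last of 5 coding exons (chr11:47376781-47377097), with a fold of 107 in control (rank 187) and of 34.2 in PDS-treated cells (rank 1759).

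The 4 strongest pairs of coding-exon peaks with a G4 motif inside CDS are shown likewise, with the motif (4 G-runs, each with 3 G or more, spaced by 1 to 7 nt and searched on both strands) in capitals.
TMC4 (chr19:54672249-54672299, plus strand): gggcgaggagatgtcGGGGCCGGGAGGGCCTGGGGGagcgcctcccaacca
PCGF2 (chr17:36891588-36891642, plus strand): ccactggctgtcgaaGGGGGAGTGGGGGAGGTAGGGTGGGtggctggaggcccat
MYO1F (chr19:8590352-8590410, plus strand): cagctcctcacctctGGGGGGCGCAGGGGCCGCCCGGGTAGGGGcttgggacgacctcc
TSKS (chr19:50265282-50265335, plus strand): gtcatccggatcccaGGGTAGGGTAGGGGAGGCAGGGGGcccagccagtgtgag
All 4 genes lie on the minus strand, so the G-rich strand was the one opposite to the coding strand in each. PCGF2 encodes a Polycomb RING finger protein, MYO1F a class I myosin and TMC4 a transmembrane channel-like protein. TMC4 had folds of 89.3 (rank 437) in control and 43.8 (rank 538) in PDS-treated cells, and the ranks of PCGF2 were 424 and 2365.

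The label "away from promoters" held for the gene starts the rule used but not for all annotated transcripts. Of the members, 336 in control (36.1%) and 363 in the PDS list (35.6%) lay within 1 kb of the start of some transcript of a protein-coding gene, and 48 and 50 lay within 1 kb of the start of another kind of gene. The median distance to the nearest protein-coding gene start was 13057 bp in control and 12506 bp in the PDS list, and 546 and 577 members were over 10 kb away. Just inside the 1 kb limit were a control peak in C1orf56 at 1004 bp (fold 19.5) and a PDS peak in EPN3 at 1018 bp (fold 7.59). Just outside it were peaks at 991 bp (fold 26.6) and 978 bp (fold 12.6), respectively. Altogether 346 control and 327 PDS peaks centred in CDS were within 1 kb of a gene start and were counted as promoter peaks.

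Coding exons, like other exons of protein-coding genes, held more peaks per Mb than introns or the DNA outside protein-coding genes. Eligible coding bases made up 32.6 Mb, or 1.15% of the bases considered. The density was 28.6 peaks per Mb in control (exact Poisson interval 26.8 to 30.5) and 31.3 per Mb in PDS-treated cells (29.4 to 33.3). The corresponding densities were 11.2 and 10.8 per Mb in introns, 8.65 and 8.90 per Mb outside protein-coding genes and 109 and 104 per Mb within 1 kb of gene starts. The intervals of coding exons did not overlap those of these classes. Other exons of protein-coding genes (untranslated or non-coding exon sequence), the class most like them, came close, with 26.97 per Mb in control (25.7 to 28.2) and 27.5 per Mb in PDS-treated cells (26.3 to 28.8), so that the intervals overlapped in control and not in PDS-treated cells. With every peak or base within 1 kb of any protein-coding transcript start left out, the density in coding exons was still 25.4 (23.4 to 27.5) and 28.1 (26.0 to 30.3) per Mb.

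The excess over introns depended on the local GC content. Intervals of coding exons lay wholly above those of introns between 45 and 55% GC in control and between 40 and 55% GC in PDS-treated cells. At 50 to 55% GC in the 200 bp around the position, coding exons held 28.5 control peaks per Mb (23.5 to 34.3) and introns 17.0 (16.3 to 17.7), and the PDS values were 33.5 (28.1 to 39.7) and 23.2 (22.4 to 24.0). At 55 to 60% GC the intervals overlapped, with densities of 34.1 per Mb in both classes in control and of 40.4 and 39.9 per Mb in PDS-treated cells. At 60 to 65% GC coding exons were lower in control, with 43.8 (37.8 to 50.6) against 57.4 (54.3 to 60.5) per Mb in introns. In PDS-treated cells the values there were 55.6 (48.8 to 63.2) and 62.5 (59.3 to 65.8), whose intervals overlapped. The intervals overlapped at 65% GC and over as well, with 87.9 and 97.9 per Mb in control and 84.4 and 87.4 per Mb in PDS-treated cells. Below 40% GC coding exons held 39 control peaks but 5 PDS peaks (5.29 and 0.678 per Mb), and introns showed the same contrast, with 4.24 and 0.902 per Mb.

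**Figure D1:**
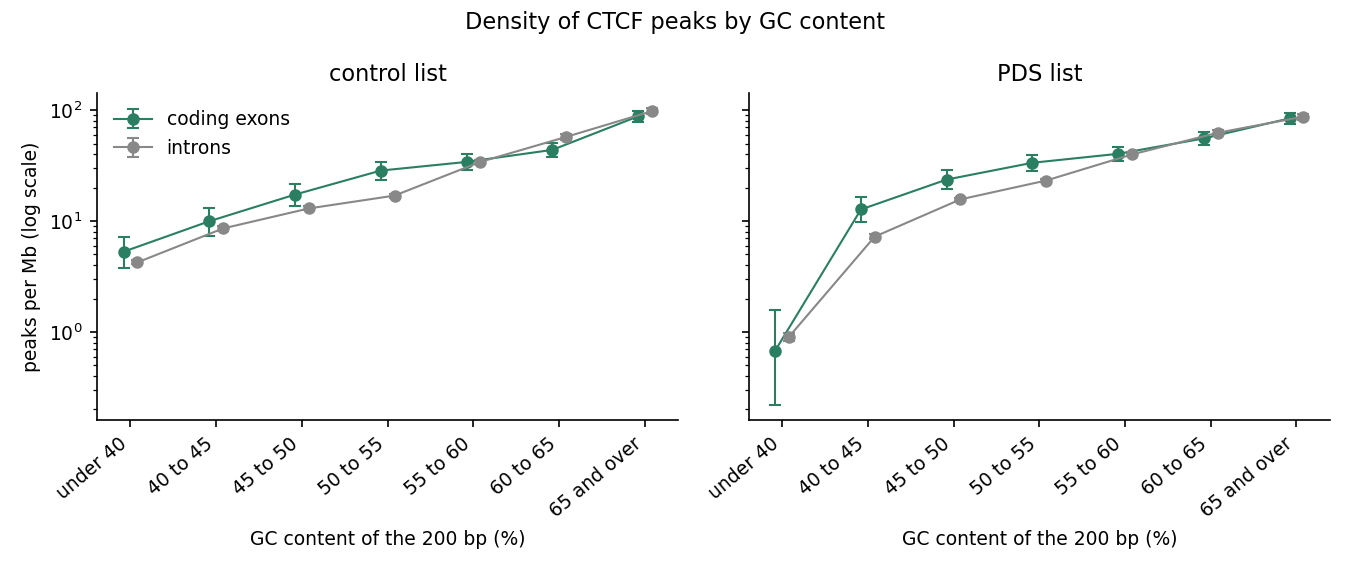
Density of CTCF peaks per Mb (log scale) in coding exons and introns, by GC content of the 200 bp around the peak centre, in the control and PDS lists; bars are exact Poisson 95% intervals. Coding exons lie above introns at 45 to 55% GC in both lists, and their intervals overlap at 55 to 60% (34.1 against 34.1 per Mb in control).

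The coding-exon peaks themselves were GC-rich. Their median GC content was 61.0% in control and 60.5% in PDS-treated cells, against 50.0 and 52.0% for intronic peaks and 67 and 65% for promoter peaks. They held a median of 7 CpG dinucleotides per 200 bp in both lists, between the 3 of intronic peaks and the 17 and 15 of promoter peaks. Their median width was 360 bp in control and 350 bp in PDS-treated cells. The peak was wider than the coding exon at its centre in 612 control and 647 PDS members, and at least 50% of its bases were coding in 577 (61.98%) and 624 (61.1%). A peak assigned to a coding exon by its centre thus often extended into the flanking intron.

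Members were more frequent in first coding exons, and less frequent in internal ones, than coding bases are. The first coding exon held 86 control members (9.24%, 7.54 to 11.3%) and 90 PDS members (8.81%, 7.23 to 10.7%), compared with 6.36% of eligible coding bases. Internal exons held 67.3% (64.3 to 70.3%) and 66.9% of members (63.95 to 69.7%), below their 71.2% of bases. The last coding exon held 184 (19.8%, 17.3 to 22.4%) and 214 members (21.0%, 18.6 to 23.6%), compared with 18.0% of bases, which the control interval included and the PDS interval did not. Away from every transcript start these shares were 25.2% (21.9 to 28.9%) and 26.0% (22.8 to 29.5%), compared with 22.1% of bases. Of 3 equal stretches of the coding sequence, the one at the 5′ end held 29.6% of control members (26.8 to 32.7%) and 25.7% of PDS members (23.1 to 28.4%), compared with 29.3% of bases, so the PDS share was below that of bases and the control interval included it. Exons longer than 500 bp held 19.1% of control and 19.2% of PDS members but 24.9% of coding bases, and both intervals ended below that share (upper limits 21.8 and 21.7%). In PDS-treated cells 26.8% of members (24.1 to 29.6%) were at bases coding in under 50% of the protein-coding transcripts of their gene, above the 21.7% of coding bases, while the control share was 23.2% (20.6 to 26.0%).

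**Figure D2:**
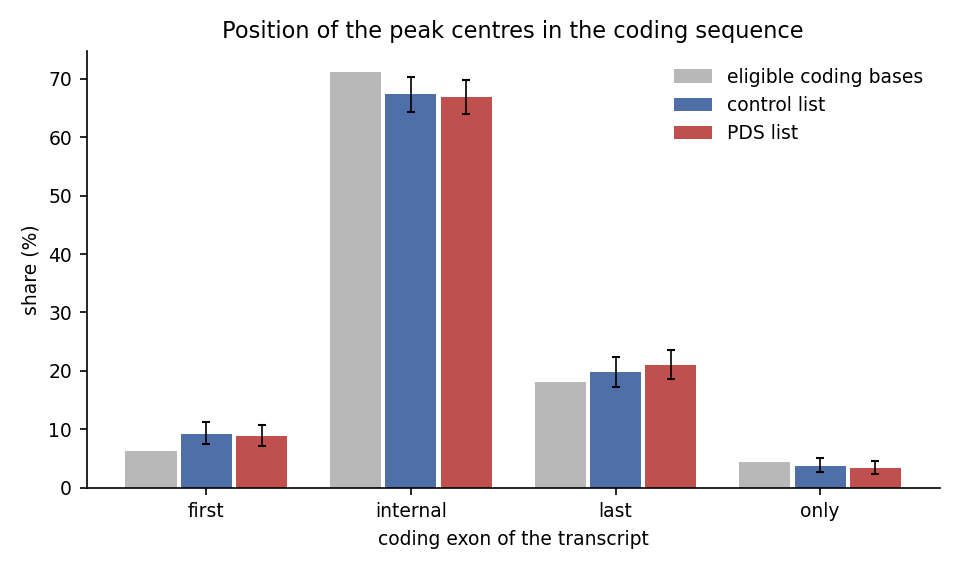
Share (%) of eligible coding bases, control members and PDS members in the first, internal, last or only coding exon of the longest coding sequence that holds the peak centre; bars are Wilson 95% intervals. First exons hold 9.24 and 8.81% of members and 6.36% of coding bases.

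Coding-exon peaks met the CTCF consensus far more often than coding sequence does. The consensus was searched on both strands and had to lie wholly within the central 200 bp. It was found in 106 control members (11.4%, 9.50 to 13.6%) and 90 PDS members (8.81%, 7.23 to 10.7%), compared with 0.371% of 200 bp windows centred on eligible coding bases. Intronic peaks also held it more often than their surroundings, with 13.98 and 9.82% of peaks and 0.148% of intronic windows. The share was above that of promoter peaks by 6.19 percentage points in control (Newcombe 95% interval 4.16 to 8.48) and by 4.06 points in PDS-treated cells (2.32 to 6.06). It was below that of intronic peaks by 2.59 points in control (the difference was -2.59, from -4.57 to -0.316), and in PDS-treated cells the interval included 0 (-1.01, from -2.68 to 0.953). Searched in the whole peak, the control interval included 0 as well (-2.30, from -4.57 to 0.244). By GC content it included 0 in control below 55% (-4.36 to 3.79) and at 55 to 65% (-5.10 to 2.51). At 65% and over it lay below 0 (-7.49 to -0.217). In PDS-treated cells the interval likewise included 0 below 55% (-2.96 to 3.575) and at 55 to 65% (-4.14 to 1.97). It lay below 0 at 65% and over (-7.99 to -0.648). From peaks in other exons the difference had an interval that included 0 (-1.59, from -4.09 to 1.06, and -1.19, from -3.34 to 1.11), and the share was below that of peaks outside protein-coding genes in both lists (-4.26, from -6.24 to -1.97, and -2.35, from -4.03 to -0.383). A 14-base core motif with up to 2 mismatches, which is GC-rich, turned the difference from introns around, to 7.92 points above introns in control and 5.83 points in PDS-treated cells. The centre of the match lay at a median of 32 bp from the peak centre in control and 26 bp in PDS-treated cells. Most matches were within CDS throughout, namely 90 of 107 in control and 69 of 90 in PDS-treated cells.

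Across the genome, 708 consensus matches were centred in coding exons away from gene starts. A control peak centre was within 100 bp of 125 of them (17.7%, 15.02 to 20.6%) and a PDS peak centre within 100 bp of 103 (14.5%, 12.1 to 17.3%). Both held at 84 matches, and 564 were near neither. In introns the shares were 20.9% (20.0 to 21.7%) and 14.6% (13.9 to 15.3%) of 9412 matches, and at promoters 25.7 and 23.2% of 824. In other exons they were 25.1% (22.4 to 27.9%) and 20.1% (17.7 to 22.8%) of 949. The intervals of coding exons and introns overlapped in both lists, and those of promoters and of other exons lay above the coding-exon interval in both.

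The consensus sat in a preferred reading frame. Of matches on the coding strand, 190 of 330 (57.6%) began at codon position 3, and 42 (12.7%) at position 2. Of matches on the opposite strand, the base that comes first along the gene was at position 2 in 137 of 326 (42.0%). Occupied and unoccupied matches had similar frames: position 3 accounted for 33 of the 58 coding-strand matches near a peak (56.9%, 44.1 to 68.8%) and 157 of the 272 near none (57.7%, 51.8 to 63.4%). Among matches near a peak, 64 of 144 (44.4%, 36.6 to 52.6%) were on the coding strand, and among the others 288 of 564 (51.1%, 46.9 to 55.2%).

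**Figure D3:**
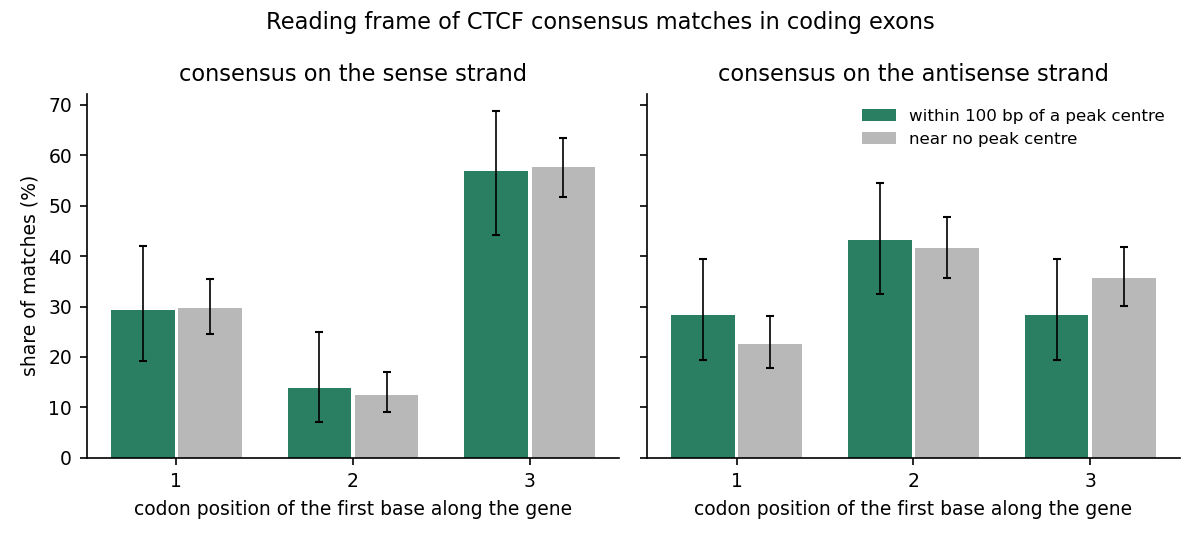
Share (%) of CTCF consensus matches wholly within one coding exon by the codon position of the base that comes first along the gene, for matches on the sense (coding) and antisense strands, within 100 bp of a peak centre of either list or near none; bars are Wilson 95% intervals. Sense matches begin mostly at position 3, whether near a peak (56.9%) or not (57.7%).

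G4 motifs overlapped the central 200 bp of 124 control members (13.3%, 11.3 to 15.7%) and 117 PDS members (11.5%, 9.65 to 13.6%), compared with 6.96% of windows on coding bases. Within classes of GC content, however, the members' intervals included the share of coding windows. At 55 to 65% GC a motif was in 12.6% of control members (9.47 to 16.6%), 10.2% of PDS members (7.67 to 13.6%) and 12.3% of coding windows. At 65% GC and over the shares were 24.1% (19.7 to 29.0%), 22.5% (18.2 to 27.5%) and 27.4%. Over all members the share exceeded that of intronic peaks by 6.12 points in control (4.04 to 8.49) and 3.30 points in PDS-treated cells (1.42 to 5.45), and it was below that of promoter peaks by 11.1 and 11.8 points (differences of -11.1, from -13.6 to -8.46, and -11.8, from -14.0 to -9.29). From peaks in other exons (12.4% in control and 12.95% in PDS-treated cells) the difference had an interval that included 0, at 0.896 points (-1.70 to 3.64) and -1.49 points (-3.92 to 1.07). The excess over introns went with the GC content. When intronic peaks were weighted to the GC content of the members, an alternative added after seeing the data, the difference turned to -5.31 points in control and -6.77 points in PDS-treated cells. At 65% GC and over, 78 of 324 control members (24.1%) and 396 of 1078 intronic peaks (36.7%) had a motif, a difference of -12.7 points (-17.9 to -6.97). The PDS values there were 70 of 311 (22.5%) and 366 of 962 (38.05%), a difference of -15.5 points (-20.8 to -9.73). Of all windows of that GC content, with or without a peak, 27.4% held a motif in coding exons and 38.2% in introns, so windows without regard to peaks differed in the same direction.

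Within CDS the G-rich strand was mostly opposite to the coding strand. Of the motifs in the members' windows, 56 of 140 in control and 45 of 127 in PDS-treated cells were inside CDS, and 17 (30.4%, 19.9 to 43.3%) and 10 of these (22.2%, 12.5 to 36.3%) were on the coding strand. Of all 5309 G4 motifs in eligible coding exons 24.98% were on the coding strand. Few of these motifs were near a peak: 55 (1.04%, 0.797 to 1.35%) had a control and 50 (0.942%, 0.715 to 1.24%) a PDS peak centre within 100 bp. The shares of intronic motifs were 0.638% (0.60 to 0.678%) and 0.692% (0.652 to 0.733%), those of motifs in other exons 1.33% (1.17 to 1.51%) and 1.32% (1.16 to 1.501%), and those of promoter motifs 3.20 and 2.93%. The intervals of coding and other exons overlapped.

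Most coding-exon peaks had a counterpart in the other condition. A peak of the other list overlapped 773 control members by at least 1 bp (83.0%, 80.5 to 85.3%) and 827 PDS members (81.0%, 78.5 to 83.3%). Thus 158 control members and 194 PDS members (17.0 and 19.0%) had none, compared with 22.0% of all control peaks and 21.4% of all PDS peaks. Since each condition has 1 list, a peak present in 1 list only is not evidence of gain or loss. The shared portion exceeded that of intronic peaks by 8.56 points in control (5.91 to 10.95) and 3.58 points in PDS-treated cells (0.955 to 5.98). From peaks in other exons it differed by 2.25 points in control (-0.844 to 5.20) and 3.08 points in PDS-treated cells (-0.0459 to 6.09), intervals that included 0. It was below that of promoter peaks in PDS-treated cells (-7.11, from -9.82 to -4.59), while in control that interval included 0 (-0.821, from -3.60 to 1.74). Against introns, among PDS peaks of like width the interval of the difference included 0, at 1.015 points up to 200 bp (-4.34 to 6.31), 0.171 points above 200 and up to 500 bp (-3.37 to 2.75) and 0.0105 points for wider peaks (-1.48 to 0.518). Among control peaks the interval lay above 0 in the same 3 width classes, at 10.5 points (4.15 to 16.6), 7.94 points (4.51 to 10.7) and 6.76 points (4.13 to 8.20). With introns weighted to the GC content of the members, however, the difference was -2.23 points in control and -0.761 points in PDS-treated cells, values without an interval. Within each class of GC content (below 55%, 55 to 65%, 65% and over) the interval of the difference included 0. The control intervals were -2.07 to 8.89, -2.41 to 3.63 and -8.32 to 0.539, and the PDS intervals -5.30 to 4.69, -4.50 to 3.68 and -5.93 to 2.08.

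**Figure D4:**
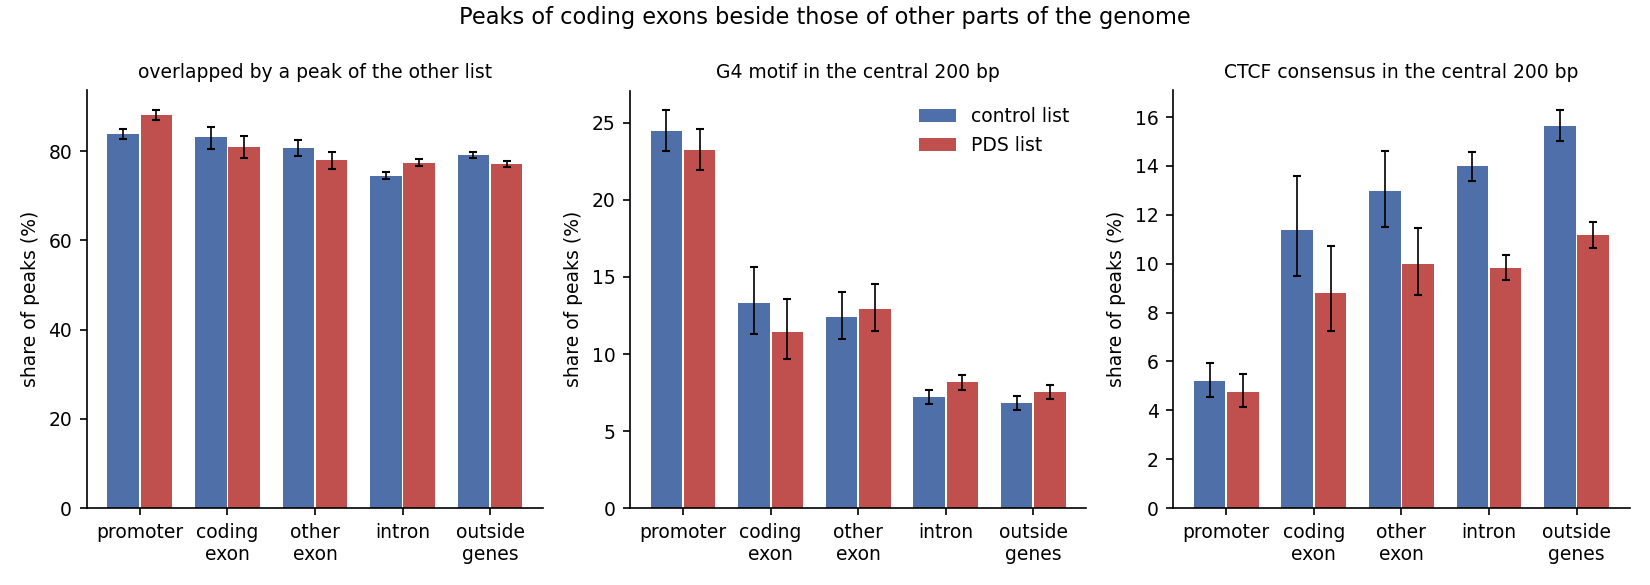
Share (%) of control and PDS peaks overlapped by a peak of the other list (left), with a G4 motif (middle) and with the CTCF consensus (right) in the central 200 bp, for peaks at promoters, in coding exons, other exons and introns and outside protein-coding genes; bars are Wilson 95% intervals. Coding-exon peaks hold G4 motifs (13.3 and 11.5%) between promoter (24.4 and 23.2%) and intronic peaks (7.198 and 8.16%).

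The members without a counterpart were narrow and ranked low by fold. Their median width was 120 bp in control and 100 bp in PDS-treated cells, compared with 360 and 400 bp for the shared members. They had a median percentile by fold of 28.1 and 20.7, compared with 57.7 and 50.8. Only 16 control and 2 PDS members without a counterpart ranked in the upper 50% of their list by p-value. The consensus was in 8 of the 158 (5.06%, 2.59 to 9.67%) and 4 of the 194 (2.06%, 0.805 to 5.18%), compared with 12.7 and 10.4% of the shared members. G4 motifs were in 21 control-only members (13.3%, 8.86 to 19.5%) and 16 PDS-only members (8.25%, 5.14 to 12.98%), shares whose intervals overlapped. A control peak was within 1 kb of 88 of the 194 PDS-only members, and a PDS peak within 1 kb of 34 of the 158 control-only members.

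The PDS-only members with the highest folds were in FZD8, a Wnt receptor gene with 1 coding exon (chr10:35929651-35929750, fold 40.003, rank 859), in CRTC1, a CREB coactivator gene (chr19:18879351-18879500, fold 25.5, rank 5505), and in FDXR, the gene of ferredoxin reductase (chr17:72859151-72859250, fold 22.6, rank 7989). By p-value these 3 peaks ranked 31777, 18033 and 22604. The control-only members with the highest folds were in NBPF1 (chr1:16918381-16918560, fold 85.5, rank 527), HACD1 (chr10:17641201-17641380, fold 54.8, rank 2900) and C12orf76 (chr12:110486161-110486400, fold 51.4, rank 3564). Their ranks by p-value were 30038, 23481 and 15974, so of these 6 peaks only that of C12orf76, which lay 46 bp from a transcript start, was in the upper 50% of its list. NBPF1 belongs to a family of near-identical copies, where the mapping of short reads can be uncertain. According to the methods, reads without a unique position or with low mapping quality were removed. Mapping at this peak was not tested.

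Among members paired with a member of the other list, the highest folds were at exons of genes with diverse roles. In control they were in COL8A2, a collagen gene (fold 123.1, rank 87), UNC13A (fold 112, rank 148), PPP1R3E, a glycogen-targeting subunit of protein phosphatase 1 (fold 112, rank 149), HOMER2, a synaptic scaffold gene (fold 109, rank 164), and SPI1 (fold 107, rank 187). The PDS peaks of these genes ranked 581, 1340, 9901, 183 and 1759 of 32917. In PDS-treated cells the highest were in HOMER2 (fold 54.1, rank 183), CDK5RAP3 (fold 53.5, rank 192), CAVIN2, a gene of caveolae (fold 47.9, rank 348), GDF15, a stress-responsive cytokine gene (fold 47.6, rank 355), and RPRD2 (fold 45.6, rank 444). Their control counterparts ranked 164, 999, 8322, 946 and 2216 of 33094. The peaks of HOMER2, CDK5RAP3, GDF15, COL8A2 and PPP1R3E were within 200 bp of a transcript start other than the gene start, whereas those of CAVIN2, RPRD2, UNC13A and SPI1 were over 2 kb from any.

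Ranks within the lists were only loosely related. Over the 549 pairs of members that overlapped each other and no other peak, Spearman's rho of the folds was 0.30 and Pearson's r was 0.38, compared with 0.42 and 0.48 over all 24616 such pairs of peaks. Below 55% GC rho was 0.44 over the member pairs and 0.43 over all pairs. At 55 to 65% GC the values were 0.37 and 0.47, and at 65% and over 0.39 and 0.54. These are correlations across peaks of the same libraries and carry no test. The percentile by fold in the PDS list minus that in the control list had a median of -5.35 points over the member pairs (order-statistic 95% interval -7.87 to -2.61), and 319 of them ranked higher in control. Over all pairs of peaks the median was 0.682 points (0.360 to 1.05), and 11974 of the 24616 ranked higher in control. By p-value the median difference had the opposite sign, 6.74 points (5.58 to 8.87), compared with 2.30 points (2.06 to 2.53) over all pairs of peaks, so the lists give no single direction. The difference by fold followed GC content, with a median of 10.5 points below 55% GC (5.89 to 16.7, 131 pairs), -1.21 points at 55 to 65% (-5.35 to 4.47, 210 pairs) and -22.4 points at 65% and over (-30.4 to -17.1, 208 pairs). Over all pairs of peaks the same classes gave 6.15, 0.617 and -19.3 points, and the coding-exon pairs are among them.

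**Figure D5:**
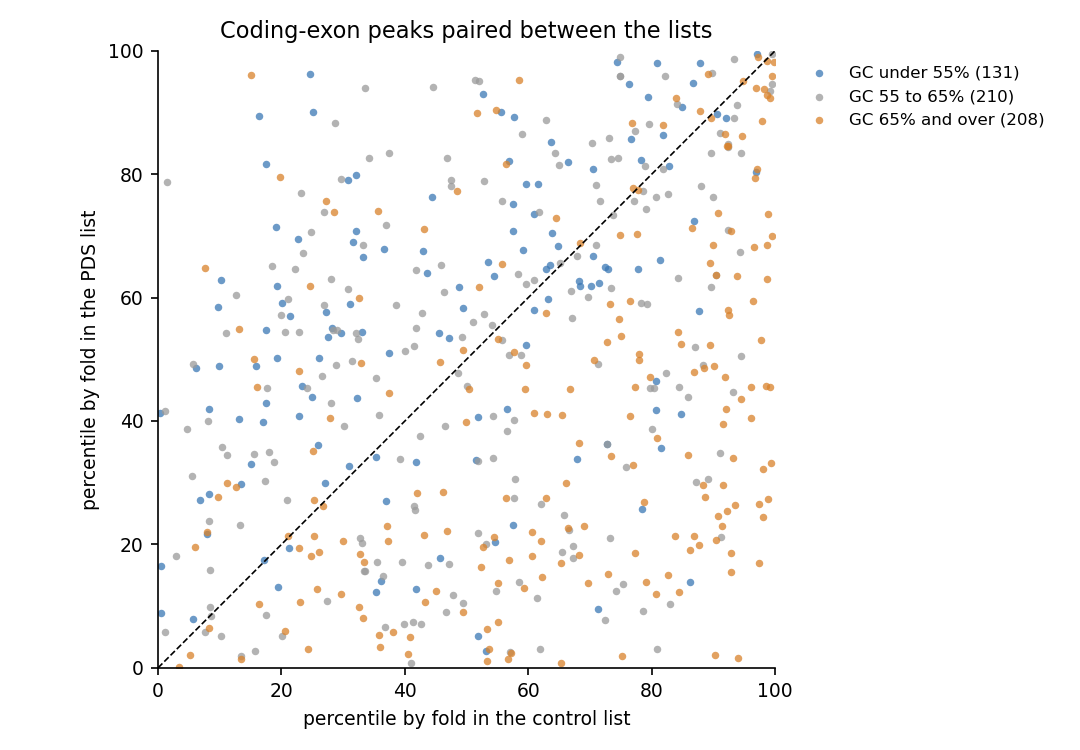
Percentile by fold in the control list (horizontal) and in the PDS list (vertical) of the 549 uniquely paired coding-exon peaks, coloured by GC content of the central 200 bp; the dashed line marks equal percentiles. Of the 208 pairs with 65% GC or more, 165 lie below the line, and of the 131 pairs under 55%, 88 lie above it.

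Among pairs with centres at most 100 bp apart, those that ranked most above their control counterpart in the PDS list were in NRP2 (exon 16 of 16 coding exons, fold 14.2 at rank 28096 in control and 36.7 at rank 1296 in PDS-treated cells), PCDH1, a protocadherin gene (rank 32592 and 6979), and NIPAL4, a gene of a magnesium transporter (rank 27670 and 3463). Those that ranked most below it were in LRRC24 (rank 1984 in control and 32378 in PDS-treated cells), EMILIN2, an extracellular matrix gene (3241 and 32221), and LMNTD2 (869 and 27350). The window held the consensus in both lists in NRP2 and in LMNTD2, so in 1 pair of each direction. The windows of LRRC24, EMILIN2 and LMNTD2 were 71 to 80% GC in control, while those of NRP2, PCDH1 and NIPAL4 were 65, 60.5 and 55% GC. By p-value the direction was the opposite in NIPAL4 (rank 5635 in control and 11637 in PDS-treated cells), EMILIN2 (14143 and 6325) and LMNTD2 (9751 and 7719). It was the same as by fold in NRP2, PCDH1 and LRRC24. Values of single samples are not analysed here, and neither set was tested.

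The members were spread over many genes. They fell in 955 of 18833 protein-coding genes with eligible coding sequence in PDS-treated cells (5.07%) and in 877 in control (4.66%), and 557 genes held a member in both. MACF1, which encodes a large protein that links actin and microtubules, held most, with 4 members in each list. All 4 were uniquely paired, the PDS peaks lying between chr1:39567951-39568950 and chr1:39876651-39877200. MYO15B held 3 in each list, but only 1 pair among them. NRP2, a receptor of semaphorins and VEGF, held 4 in control and 2 in PDS-treated cells, and LRP1, an endocytic lipoprotein receptor gene, 1 and 4. CDH23 and DAGLA held 3 PDS members each and no control member. In each of these genes 2 of the 3 had no overlapping control peak, and the other overlapped a control peak centred in an intron.

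Gene families differed in how often their exons held a peak, although most counts were small. Families were taken by gene symbol, and their counts stand beside 5.07 and 4.66% of all genes and densities of 31.3 and 28.6 per Mb over all coding exons. Semaphorin genes, which encode guidance cues, held a member in 6 of 20 genes in PDS-treated cells and 5 of 20 in control, 113 (41.4 to 246) and 94.1 (30.5 to 220) per Mb of coding sequence. The PDS members were in SEMA3B, SEMA4A, SEMA4B, SEMA4F, SEMA5B and SEMA6B, and all but SEMA6B had a control member too, in SEMA4B at another exon. The intervals of the semaphorin genes lay above the density over all coding exons in both lists. Among them the SEMA3B exon ranked highest in PDS-treated cells (rank 1349, fold 36.4) and the SEMA4B exon in control (rank 5892, fold 42.9). Myosin genes held a member in 11 of 39 and 8 of 39 genes, at 64.7 (35.4 to 109) and 46.2 (22.2 to 85.0) per Mb. Solute carriers, a large group of membrane transporters, held one in 32 of 373 genes in PDS-treated cells and 23 of 373 in control, at 55.2 (37.995 to 77.5) and 40.1 (25.7 to 59.7) per Mb. Cadherins, with members in 4 of 23 genes in each list, stood at 104.9 (42.2 to 216) and 59.9 (16.3 to 153) per Mb. For myosins, solute carriers and cadherins the PDS interval lay above the overall density and the control interval included it. Members of 1 gene are not independent, and in the PDS list MYO15B held 3 of the 14 myosin members and CDH23 3 of the 7 cadherin members. Potassium channel genes held one in 8 and 7 of 94 genes. Calcium channel genes held one in 6 and 2 of 26 and adhesion G protein-coupled receptors in 6 and 2 of 31. The PDS densities of these 3 families had intervals that included the overall density (23.01 to 105, 29.2 to 149 and 20.5 to 105 per Mb), and so did that of the HOX genes (30.004 to 425 per Mb). In the HOX clusters HOXC10 and HOXD10 held a member in both lists, each in the last coding exon, and HOXB2 in PDS-treated cells only.

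Genes with zinc finger symbols (ZNF, ZFP, ZSCAN, ZBTB or ZKSCAN), most of which encode C2H2 proteins, stood at the other end. They held a member in 9 of 604 genes in PDS-treated cells (1.49%) and 15 of 604 in control (2.48%), with densities of 8.58 (4.12 to 15.8) and 12.9 (7.21 to 21.2) per Mb, intervals that ended below the density over all coding exons. Olfactory receptor genes held no member among 231 genes in either list, where 0 peaks allow up to 19.0 per Mb, also below that density. Protocadherins (3 and 2 of 64 genes), collagens (3 and 4 of 44), keratins (3 and 1 of 55), dyneins (3 and 2 of 13), laminins (0 and 1 of 12), plexins (0 and 0 of 9), ankyrins and spectrins (2 and 2 of 10), receptor tyrosine phosphatases (2 and 3 of 21) and histone methyltransferases and acetyltransferases (1 and 1 of 27) had intervals that included it. Among genes of haematopoiesis and leukaemia looked up singly, KLF1, the erythroid transcription factor, and PTPRC, which encodes CD45, held a member in both lists. The KLF1 exon had a fold of 44.3 (rank 5376) in control and 11.8 (rank 25867) in PDS-treated cells, and a G4 motif in both windows. By p-value, however, the KLF1 peak ranked 2809 in control and 2129 in PDS-treated cells. ABL1 held a member in the PDS list only and BCR in the control list only, but each overlapped a peak of the other list with its centre outside CDS. RB1, BCL6, GATA1, TAL1, NOTCH1 and TERT held none in either list.

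Density also varied between chromosomes in both lists. Densities of other classes of peaks are not given by chromosome here, and a relation to GC content was not tested. Chromosome 17 was highest, with 91 control members (49.6 per Mb of coding sequence, 39.96 to 60.9) and 121 PDS members (66.0 per Mb, 54.8 to 78.8). Chromosome 19 followed in PDS-treated cells and was close to it in control, with 46.1 (37.5 to 56.1) and 45.7 (37.1 to 55.6) per Mb. Chromosomes X, 13 and 18 were at the low end, with 11.5 (6.30 to 19.3), 11.6 (4.66 to 23.9) and 15.1 (6.53 to 29.8) per Mb in control and 13.2 (7.53 to 21.4), 16.5 (7.93 to 30.4) and 13.2 (5.32 to 27.3) per Mb in PDS-treated cells, and their intervals overlapped. Chromosome 4 was close to them in both lists, with 15.3 per Mb in control and 16.1 per Mb in PDS-treated cells. In PDS-treated cells chromosomes 4 and 14 (16.46 per Mb) lay just below chromosome 13 (16.54 per Mb).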

How the data were processed

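CTCF ChIP-seq of control and PDS-treated K562 cells was analysed from 2 deposited peak lists. Bowtie2 2.2.3, SAMtools and deepTools 2.0 are named in the submitters' processing notes. According to the methods, reads were aligned to hg19, filtered for duplicates and mapping quality, and passed to PePr. The fold (ratio of CTCF over IgG) and the p-value of each peak were computed by the authors for 1 list per condition, jointly over its replicates. They state a p-value cutoff of 0.05, whereas the largest deposited p-value is 1e-05 in both lists. Peak widths are multiples of 50 bp in the PDS list and of 60 bp in the control list, although the methods give a single window size; the reason was not tested. The labels describe single-end reads and the methods paired-end libraries. Depth per sample was not analysed here, and the 2 lists hold no value per sample from which an SD could be given.

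Peaks on other sequences (24 PDS, 25 control) were left out; none passed a chromosome end of GRCh37. Peaks were assigned by centre in the order promoter (within 1 kb of a protein-coding gene start), coding exon, other exon, intron and outside, using GENCODE 44 lifted to GRCh37. Gene and exon are those of the longest coding sequence that holds the centre. Distances are to the nearest gene or transcript start, which need not belong to that gene. GC content and motifs were read in the central 200 bp. The CTCF consensus is the exonuclease-derived one that the study cites. Shares have Wilson, differences Newcombe, densities exact Poisson and medians order-statistic 95% intervals. The 14-base core motif, wider windows, longer loops, other overlaps, other class rules and the upper 50% by p-value were alternatives. Members, families and genes were chosen with earlier results of these data known. Genes are named as the strongest pairs (5 per list), the strongest unpaired members (3 per list), the largest rank differences (3 each way), genes with at least 3 members in a list, and members of the families; sequences as the strongest pairs with a motif inside CDS. Some genes that this rule names are not reported here. GC weighting in classes of 5 points and GC strata were added after seeing the data. On simulated data 200 of 200 planted G4 motifs, 200 of 200 consensus sites and 2430 of 2430 overlaps were found, and 387 of 400 Newcombe intervals held the planted difference. Computations used samtools 1.23.1, Python 3.11.15 and its packages pyfaidx 0.9.0.4, matplotlib 3.10.9, scipy 1.17.1, pandas 2.3.3 and numpy 2.4.6.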

Additional observations from a re-analysis of the deposited data

How the results depend on the processing

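Of 82 alternative values for 16 results, 34 moved by no more than counting error or, for counts, by no more than 1.5 times, 40 moved by more and 8 changed sign; the cause was not tested. In each pair of values below the PDS list comes first. The number of coding-exon peaks was 653 and 608 when at least 50% of a peak's bases, rather than its centre, had to be coding. It was 658 and 595 away from every transcript start, and 571 and 486 in the upper 50% by p-value. The share with a counterpart was 68.8 and 72.9% for an overlap of 50% of both peaks, 62.9 and 68.3% for centres within 100 bp, 89.6 and 86.7% with a gap of up to 1 kb, and 84.2 and 89.5% in the upper 50% by p-value. Its difference from introns was 11.8 points (control) for an overlap of 50% and 11.9 points (control) for centres within 100 bp. It turned to -1.23 points (PDS) with a gap of up to 1 kb, with an interval that included 0 (-3.31 to 0.572). With introns weighted by GC content it turned to -0.761 and -2.23 points, without an interval. In the upper 50% by p-value this difference was 2.50 points (PDS), with an interval that included 0 (-0.863 to 5.43). The share with a G4 motif was 24.6 and 23.1% in the whole peak, 42.9 and 42.7% in 1000 bp, 24.9 and 26.4% with loops up to 12 nt, and 10.9% (control) away from transcript starts. Its difference from introns was 10.4 and 11.1 points in the whole peak, 17.9 and 20.3 points in 1000 bp and 7.95 and 11.8 points with loops up to 12 nt. It turned to -6.77 and -5.31 points with introns weighted by GC content, without an interval. The share with the consensus was 14.6 and 15.4% in the whole peak, 16.3 and 16.4% in 1000 bp, 12.5 and 15.7% for the 14-base core, and 11.6 and 13.99% in the upper 50% by p-value. Its difference from introns turned to 0.113 points (PDS) in the whole peak, with an interval that included 0 (-2.01 to 2.49). For the core it turned to 5.83 and 7.92 points. The share in the last coding exon was 26.0 and 25.2% away from transcript starts and 23.3% (control) in the upper 50% by p-value. No paired analysis was possible because the 2 peak lists analysed here hold no value per replicate, and for the same reason no replicate could be left out.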
